A study of Mus musculus with 3 samples.

Results

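Foxp2 nuclei are glutamatergic nuclei from the dissected mouse hippocampus that carry Foxp2, the gene of a forkhead transcription factor. They were selected on 5 conditions per nucleus: 500 or more genes detected, at least 1 UMI (unique molecular identifier, 1 counted RNA molecule) of Slc17a7, 2 or more UMIs of Foxp2 at more than 1 per 10000 UMIs, at least 1 of Syt6, Rprm and Tle4 detected, and Gad1 plus Gad2, and also Prox1, at no more than 1 per 10000. The rule found 418 nuclei of 26480 with 500 or more genes: 214 in mouse 1, 33 in mouse 2 and 171 in mouse 3. Syt6, Rprm and Tle4 had been named as genes of deep cortical layers, so the nuclei were set against markers of those layers that the rule did not use.

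The 3 mice were adult females of genotype Scn8aD/+, heterozygous for the D allele of Scn8a, and their sample names call them post-onset. Hippocampal nuclei were sorted on a DNA dye, propidium iodide, and profiled by 10x 3' single-nucleus RNA-seq aiming at 10000 nuclei a library and 60000 reads for each of these. Each mouse was a batch of its own, which leaves batch and animal inseparable. Pre-onset and control animals, to which the collection protocol in the labels refers, were not analysed here. Every contrast below is therefore between kinds of nuclei within the same mutant mice, and none is an effect of the mutation.

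In the cerebral cortex, Foxp2 is known as a marker of layer 6 neurons that send axons to the thalamus, where Tle4, Syt6 and the transcription factor Tbr1 are also found. Pyramidal neurons of the hippocampal fields CA1 and CA3 and of the subiculum share the glutamate transporter gene Slc17a7 with them but have markers of their own. Prox1 marks dentate granule cells, and Gad1 and Gad2 mark inhibitory neurons.

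The libraries held 100230288, 50931257 and 140527761 UMIs in mice 1, 2 and 3, and between 13 and 36 barcodes were shared by a pair of libraries, none of them among the Foxp2 nuclei. Foxp2 nuclei had a median of 14346 UMIs in mouse 1, 13758 in mouse 2 and 29623 in mouse 3, against 13542, 2317 and 37648 in glutamatergic nuclei with no Foxp2 UMI. The library of mouse 2 stood apart, with shallow nuclei overall and few Foxp2 nuclei, and its 33 nuclei gave 519780 UMIs in all, so that 3 UMIs correspond to 5.77 CPM (UMIs of a gene scaled to a common total per class and mouse, as counts per 1e6 UMIs). In the sum of all Foxp2 nuclei of mouse 2, values below that rest on 1 or 2 molecules. The mice were separate animals. The tests measure how the difference between the 2 class sums of a mouse varied over the 3 mice.

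Foxp2 nuclei made up 2.48% of nuclei in mouse 1 (95% exact binomial interval 2.16 to 2.83%), 0.250% in mouse 2 (0.172 to 0.351%) and 3.67% in mouse 3 (3.15 to 4.25%), a mean of 2.13 ± 1.74% (SD, n = 3 mice). The mice differed by more than counting error, and their median depth over all nuclei with 500 or more genes, 9146, 1813 and 25782 UMIs, ran in the same order. The part of depth in the difference was not tested. These intervals cover counting error only.

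The genes that chose the nuclei are given here as description. Foxp2 stood at 293, 231 and 241 CPM in Foxp2 nuclei of mice 1, 2 and 3, against 23.0, 18.3 and 19.1 CPM in all other nuclei. A Foxp2 nucleus held a median of 4, 3 and 6 Foxp2 UMIs, with at most 23, 10 and 40. Tle4, a Groucho-type co-repressor gene, was detected in 98.1%, 100% and 99.4% of Foxp2 nuclei and met the condition on these 3 genes in nearly all of them. Syt6 was detected in 14.5%, 9.09% and 14.0% of them, and Rprm in 18.2%, 12.1% and 7.60%. All 3 genes were seen together in 7, 1 and 2 nuclei. Near the threshold, nuclei just inside it (up to 1.2 Foxp2 UMIs per 10000) had 1998, 2919 and 1524 CPM of Hs3st4, a deep-layer gene, against 649, 695 and 1238 CPM in otherwise eligible nuclei just outside (over 0.8 and up to 1 per 10000), on 14, 2 and 29 nuclei inside and 11, 2 and 29 outside. Sulf1, of the same list, had 115, 0 and 129 CPM just inside against 87.4, 90.1 and 91.6 CPM just outside, with the order turned in mouse 2.

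When each library was clustered without the genes of the rule, 253 of the 418 nuclei (60.5%) fell in 2 clusters per mouse and the other 165 (39.5%) were spread over many. In each mouse, these 2 were picked as the clusters that held the most Foxp2 nuclei. Cluster A held 96, 9 and 72 Foxp2 nuclei, 177 in all. In each mouse, cluster A was named as the one of the 2 whose Foxp2 nuclei had the higher level of Hs3st2. That Hs3st2 was among its leading genes in all 3 mice is therefore fixed in part by the naming. Its other leading genes against the rest of its library included Rai14, Sulf1 and Rmst in all 3 mice. Cluster B held 35, 12 and 29 Foxp2 nuclei, 76 in all, and Sntb1 and Vwc2l were among its leading genes in all 3. No cell type name is given to either, because these genes were used to form them.

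Among eligible nuclei (those that met the Slc17a7, Gad and Prox1 conditions), Foxp2 nuclei formed 62.7%, 3.91% and 58.5% of cluster A in mice 1, 2 and 3, and 32.7%, 9.23% and 39.7% of cluster B. In all other clusters they formed 2.70%, 0.378% and 4.81%. Because clusters A and B were picked for holding the most Foxp2 nuclei, their higher share is fixed in part by that choice and is description. The same conditions on Foxp2 and on Syt6, Rprm or Tle4 were met by 11.1%, 2.27% and 5.48% of Prox1-positive granule-gate nuclei, which is above the other clusters in mice 1 and 2 and within counting error of them in mouse 3 (2.40 to 10.5% against 3.77 to 6.04%). They were met by 0.238%, 0.392% and 1.84% of oligodendrocyte-marker nuclei, whose median depths were 2936, 2191 and 6236 UMIs against 13967, 2421 and 38682 in the eligible nuclei of the other clusters. In mouse 2, where those depths were near each other, the share of Foxp2 nuclei in the other clusters did not differ from the oligodendrocyte share beyond counting error (0.196 to 0.660% against 0.128 to 0.913%). Nuclei of the inhibitory neuron gate met the same conditions on Foxp2 and on Syt6, Rprm or Tle4 in 3.63%, 0.422% and 6.48% of cases. Their median depths were 9894, 1960 and 26767 UMIs, nearer to the other clusters than the oligodendrocyte depths in mice 1 and 3. These inhibitory shares were above those of Foxp2 nuclei in the other clusters in all 3 mice, with overlapping 95% intervals in each. The part of free RNA was not tested. Some of the scattered nuclei lay in clusters led by genes of other cells: 3, 1 and 2 of them in clusters led by Pdgfra and Neu4, genes of oligodendrocyte precursors. Scrublet, a doublet caller, marked 19, 1 and 7 Foxp2 nuclei.

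**Figure D1:**
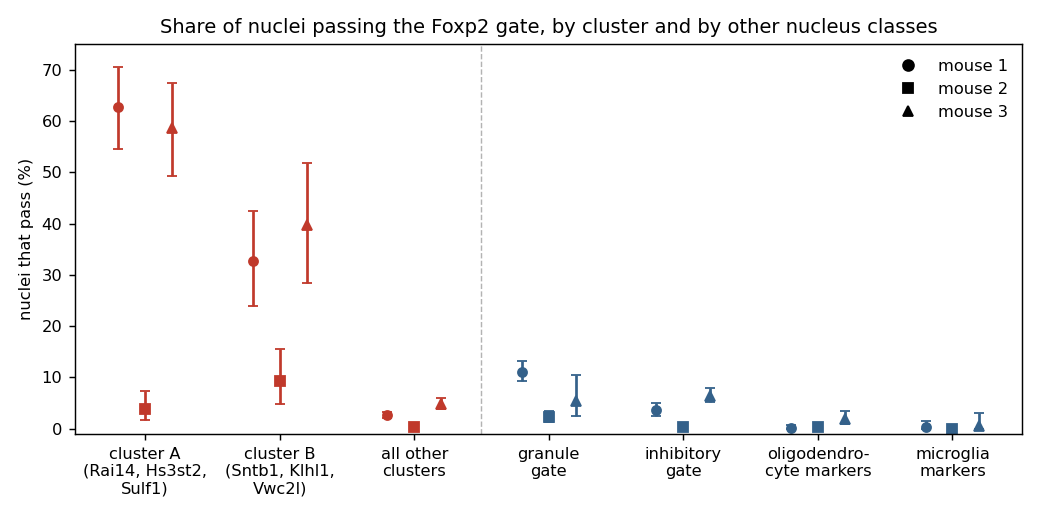
Share of nuclei (%, y axis) that passed the Foxp2 gate, by mouse, with 95% exact binomial intervals. Left of the dashed line, Foxp2 nuclei among eligible nuclei of cluster A, cluster B and all other clusters; right of it, nuclei of other classes that met the Foxp2 condition and the Syt6, Rprm or Tle4 condition. Mice 1 and 3 reach 62.7% and 58.5% in cluster A, and mouse 2 stays under 10% throughout. Clusters A and B were picked for holding the most Foxp2 nuclei, so their height over the other clusters is fixed in part.

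The first comparison set Foxp2 nuclei against the 7196 glutamatergic nuclei of the same libraries that met the Slc17a7, Gad and Prox1 conditions and had no Foxp2 UMI, with counts summed per mouse and class. Foxp2 nuclei had higher levels of genes known from deep cortical layers and of a set of channel, receptor and adhesion genes, and lower levels of genes known from CA3 and CA1. Among 15648 genes tested, 394 were higher (2.52%) and 415 lower (2.65%) at an adjusted p under 0.05 and a change of 2-fold or more (edgeR quasi-likelihood test with mouse as a block, Benjamini-Hochberg adjustment). Because the nuclei were chosen on identity genes, these totals are context. Without the block for mouse, 51 were higher and 12 lower. In nuclei outside clusters A and B, 96 were higher and 80 lower.

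Rai14, which encodes an actin-associated ankyrin-repeat protein (chromosome 15, 10568969 to 10714624, mm10), had 157, 139 and 186 CPM in Foxp2 nuclei of mice 1, 2 and 3, against 8.61, 7.81 and 16.0 CPM in Foxp2-zero nuclei. Its log2 fold change was 3.88 ± 0.15 (SE; edgeR adjusted p = 6.39e-08). The classes were far apart in all 3 mice. Grik3, a kainate receptor subunit gene (chromosome 4, 125490700 to 125714173), had 310, 256 and 233 CPM in Foxp2 nuclei and 32.8, 32.0 and 33.0 CPM in Foxp2-zero nuclei, a log2 fold change of 2.98 ± 0.12 (edgeR adjusted p = 6.39e-08). Cntnap4, a neurexin-family adhesion gene, had 454, 460 and 445 CPM against 38.9, 50.2 and 61.9 CPM in Foxp2-zero nuclei (log2 fold change 3.16 ± 0.14, edgeR adjusted p = 1.30e-07). Levels of these 3 genes were alike among the mice in spite of their unequal depth.

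The other genes furthest higher were Hmga2, Myocd, Kcnh8, St3gal1, Abi3bp, Rmst, Hs3st5, Pamr1 and Sulf1, with log2 fold changes between 2.70 and 3.70. Hmga2, a chromatin protein gene, was uneven among the mice, at 10.5, 55.8 and 7.92 CPM in Foxp2 nuclei against 1.29, 0.679 and 1.17 CPM in Foxp2-zero nuclei. Kcnh8, a voltage-gated potassium channel gene, had 67.2, 152 and 40.3 CPM in Foxp2 nuclei and 7.01, 8.94 and 5.24 CPM in Foxp2-zero nuclei. Rmst, a long non-coding RNA gene, stood at 401, 389 and 445 CPM in Foxp2 nuclei against 52.6, 35.9 and 79.7 CPM in Foxp2-zero nuclei.

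The genes furthest lower were Hgf, Fyb2, Ccbe1, Adamts9, Cenpf, Il16, Tgfb2, Palmd, Rhoj, Arhgef26, Galnt3 and Antxr2, with log2 fold changes from -2.44 to -1.95. Ccbe1 had 18.4, 15.4 and 10.3 CPM in Foxp2 nuclei and 99.0, 99.9 and 48.0 CPM in Foxp2-zero nuclei (log2 fold change -2.41 ± 0.15, edgeR adjusted p = 9.71e-07). Tgfb2, a growth factor gene, had 9.91, 5.77 and 24.8 CPM in Foxp2 nuclei against 38.2, 34.6 and 115 CPM in Foxp2-zero nuclei. The classes did not overlap for either. They overlapped in Hgf, Rhoj and Antxr2, and Antxr2 was no longer called without mouse 3 (log2 fold change -1.46, edgeR adjusted p = 0.0809).

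**Figure D2:**
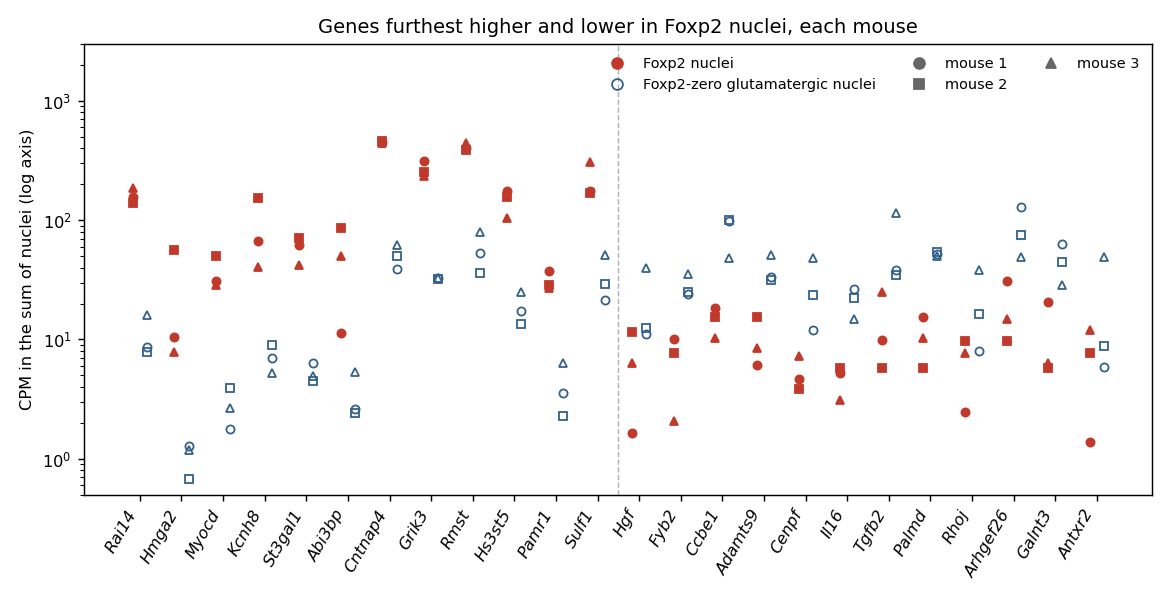
CPM (log axis) of the 12 genes furthest higher (left of the dashed line) and the 12 furthest lower in Foxp2 nuclei (filled red) than in Foxp2-zero glutamatergic nuclei (open blue), with 1 marker per mouse. The genes were chosen for their change, so their separation is a description; Hgf, Rhoj and Antxr2 overlap between the classes.

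Of the 15 genes listed for deep-layer corticothalamic neurons, 12 passed the filter on low counts, and 7 of these 12 were higher and none lower, with a median log2 fold change of 1.496 against -0.03 over all genes tested. Hs3st4, a heparan sulfate sulfotransferase gene (chromosome 7, 123982869 to 124398989), had 2062, 2580 and 2312 CPM in Foxp2 nuclei, against 661, 804 and 748 CPM in Foxp2-zero nuclei (log2 fold change 1.61 ± 0.11, edgeR adjusted p = 1.92e-06). Sulf1, an extracellular sulfatase gene, had 175, 169 and 305 CPM against 21.3, 28.9 and 50.9 CPM in Foxp2-zero nuclei (log2 fold change 2.70 ± 0.13, edgeR adjusted p = 1.63e-07). Tbr1, a transcription factor of deep-layer identity, had 23.7, 15.4 and 24.8 CPM in Foxp2 nuclei and 6.39, 3.40 and 6.55 CPM in Foxp2-zero nuclei (log2 fold change 1.90 ± 0.18, edgeR adjusted p = 3.68e-05). Zfpm2, Brinp3, Col5a1 and Garnl3 were the others that rose.

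Several defining genes of the label were missing from this rise. Ntsr1, the neurotensin receptor gene used to mark layer 6 corticothalamic cells, had 1, 0 and 19 UMIs in all Foxp2 nuclei of mice 1, 2 and 3 (0.275, 0 and 3.27 CPM), against 2.11, 0.283 and 1.54 CPM in Foxp2-zero nuclei. Ctxn3, also of this list, had 1, 0 and 1 UMIs. Sox5 and Fezf2, transcription factors of deep-layer neurons, had log2 fold changes of 0.75 ± 0.15 and 0.59 ± 0.13, below the 2-fold limit. The list was also counted apart for nuclei outside and within clusters A and B, without a test of the difference: in Foxp2 nuclei outside them none of the 12 genes was called and the median was 0.17, with Hs3st4 at 0.16 (edgeR adjusted p = 0.832) and Sulf1 at 0.98 (edgeR adjusted p = 0.000493), which missed the call by the 2-fold limit, whereas within them 9 were higher with a median of 1.84. Outside them 5 of the 12 had an unadjusted p under 0.05. Genes of this list were not withheld from the clustering. The difference between inside and outside is therefore fixed in part by how the clusters were formed, and is description. Because the deep-layer label was met by part of its list, and in this description in part of the nuclei, they are called Foxp2 nuclei throughout. Reads of Hs3st4 may be shared with Gm15338, which overlaps it on the same strand, as may those of Lhfpl3 and Cdh8 below with 6030443J06Rik and Gm15680.

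Of 10 genes listed for layer 6b, the deepest cortical layer, 7 were tested and 4 were higher: Svil, Drd1, Ccn2 and Lpar1. Lpar1, a lysophosphatidic acid receptor gene, had 28.9, 38.5 and 77.1 CPM in Foxp2 nuclei and 8.201, 13.8 and 31.0 CPM in Foxp2-zero nuclei. Its ranges overlapped over the mice, but it was higher within each mouse. Ccn2 and Drd1 were no longer called without mouse 1, at log2 fold changes of 1.05 and 1.38 (edgeR adjusted p = 0.133 and 0.163). Nxph4, a defining layer 6b gene, had 1, 0 and 4 UMIs.

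Lists of other cortical layers were mixed. Of 11 upper-layer genes tested, Rorb, Il1rapl2 and Deptor were higher and Lhx2 lower. Deptor, an inhibitor of mTOR signalling, had 56.7, 53.9 and 57.2 CPM in Foxp2 nuclei against 19.5, 14.7 and 16.1 CPM in Foxp2-zero nuclei. Rorb, a nuclear receptor gene of layer 4, had 116, 140 and 69.9 CPM in Foxp2 nuclei and 7.47, 12.6 and 50.4 CPM in Foxp2-zero nuclei, and was not called without mouse 2 (log2 fold change 2.10, edgeR adjusted p = 0.0772). Of 9 layer 5 genes, Tshz2 and Trhr were higher.

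Lists of hippocampal fields differed among themselves. None of 8 CA1, 10 CA3 and CA2 or 6 mossy cell genes tested was higher, and 3, 4 and 2 of them were lower, with median log2 fold changes of -0.69, -1.01 and -1.20. Galnt3, a CA3 marker, had 20.6, 5.77 and 6.37 CPM in Foxp2 nuclei against 62.6, 44.3 and 28.4 CPM in Foxp2-zero nuclei. Man1a, a CA1 marker, had 148, 165 and 368 CPM in Foxp2 nuclei against 487, 410 and 648 CPM in Foxp2-zero nuclei. The subiculum list was mixed, and the granule cell list did not share the fall. Of 8 subiculum genes, Tshz2 was higher and Fn1 lower, with a median log2 fold change of -0.32 and 3 of 8 above 0. The list summed to 947, 1391 and 1128 CPM in Foxp2 nuclei against 382, 239 and 534 CPM in Foxp2-zero nuclei. That sum rests largely on Tshz2. In Foxp2 nuclei it had 827, 77.1 and 534 CPM in cluster A, 2169, 2746 and 3125 CPM in cluster B, and 375, 242 and 730 CPM in the rest. None of 6 granule cell genes tested was called by edgeR's quasi-likelihood test or by DESeq2 (1 with an unadjusted p under 0.05 in each), with a median log2 fold change of 0.26. The summed level of 8 CA1 genes was 1519, 1108 and 1570 CPM in Foxp2 nuclei and 1985, 1559 and 1954 CPM in Foxp2-zero nuclei. In mouse 3 the Foxp2 nuclei were above the Foxp2-zero nuclei of mouse 2, and no CA1 gene of the list was at 0 in all mice.

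Markers of glia and 1 inhibitory neuron gene moved with the comparison. The summed level of 8 oligodendrocyte genes was 328, 510 and 95.9 CPM in Foxp2 nuclei and 544, 788 and 260 CPM in Foxp2-zero nuclei, and 5 of the 8 were lower. Prr5l, Cldn11, Mag and Mog, the 4 of these named by the greatest change, were no longer called when Foxp2-zero nuclei were held within the depth of the Foxp2 nuclei (log2 fold changes -0.34, -0.58, -0.13 and -0.028). Mag and Mog were not called without mouse 3 either (-0.87 and -0.98). Of 6 oligodendrocyte precursor genes tested, 3 were higher, Pdgfra, Lhfpl3 and Vcan, and the list summed to 203, 350 and 221 CPM in Foxp2 nuclei against 114, 131 and 81.3 CPM in Foxp2-zero nuclei. Pdgfra, the receptor gene that defines those precursors, had 9.63, 19.2 and 6.03 CPM in Foxp2 nuclei and 5.24, 5.43 and 0.848 CPM in Foxp2-zero nuclei. Within clusters A and B it was not higher (log2 fold change -1.73, edgeR adjusted p = 0.103), nor was it called with doublet calls left out (1.28, edgeR adjusted p = 0.151). Vcan was not called without mouse 2 or without mouse 3 (0.94 and 0.88). The part of free RNA or mixed nuclei in the other results was not tested.

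**Figure D3:**
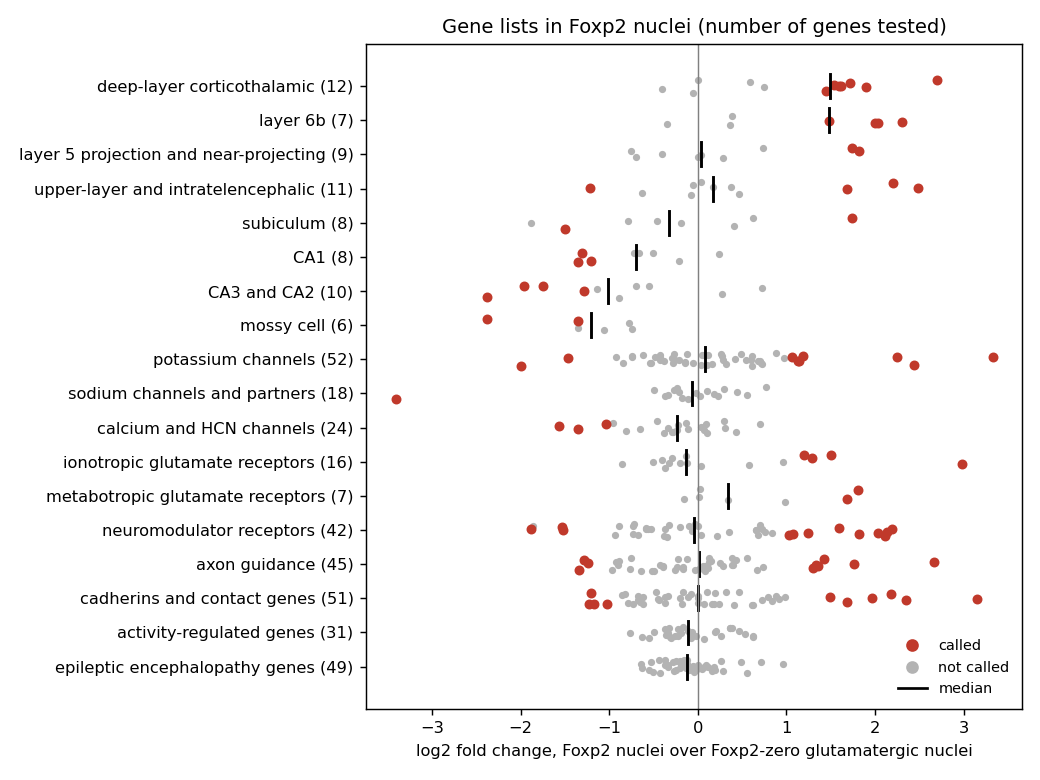
Log2 fold change of Foxp2 nuclei over Foxp2-zero glutamatergic nuclei (x axis) for each tested gene of 18 lists. Red points were called, grey points were not, black bars are medians, and the number tested follows each name. The medians of the deep-layer corticothalamic and layer 6b lists are near 1.5 and those of the CA1, CA3 and mossy cell lists lie below 0.

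Genes of excitability went in both directions. Of 52 potassium channel genes tested, 7 were higher and 2 lower, with a median of 0.08, beside 2.52% higher and 2.65% lower over all genes tested. Of 24 calcium and HCN channel genes, none was higher and 3 were lower, Ryr1, Cacna2d3 and Cacna1h, with a median of -0.23. Dpp10, an auxiliary subunit of A-type channels, had 6365, 2807 and 6232 CPM in Foxp2 nuclei and 957, 647 and 1574 CPM in Foxp2-zero nuclei (log2 fold change 2.24 ± 0.14, edgeR adjusted p = 1.75e-06). Kcnip1, which encodes a partner of the same channels, had 89.7, 194 and 92.3 CPM in Foxp2 nuclei and 19.8, 26.1 and 16.97 CPM in Foxp2-zero nuclei. Kcnq5, a subunit of M-current channels, fell to 685, 419 and 749 CPM in Foxp2 nuclei, against 1759.97, 1556 and 1616 CPM in Foxp2-zero nuclei (log2 fold change -1.47 ± 0.14, edgeR adjusted p = 3.22e-05).

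Among ionotropic glutamate receptor genes, Grik3, Grin3a and Grik1 were higher. Grik1 was uneven: it was not called without mouse 2 (log2 fold change 0.997, just under the 2-fold limit) and was lower with the stricter Foxp2 gate (-0.70). Of 7 metabotropic receptor genes, Grm3 and Grm8 were higher. Grm3, coding for a receptor that lowers cyclic AMP, had 458, 277 and 475 CPM in Foxp2 nuclei against 127, 95.9 and 111 CPM in Foxp2-zero nuclei.

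Of 42 neuromodulator receptor genes tested, 9 were higher and 3 lower, with a median of -0.04. Chrm2, a muscarinic acetylcholine receptor gene, had 88.6, 142 and 101 CPM in Foxp2 nuclei and 17.1, 11.997 and 41.3 CPM in Foxp2-zero nuclei (log2 fold change 2.19 ± 0.29, edgeR adjusted p = 0.000341). Oprm1, the mu opioid receptor gene, had 64.1, 69.3 and 39.3 CPM in Foxp2 nuclei against 12.8, 15.1 and 10.2 CPM in Foxp2-zero nuclei (log2 fold change 2.11 ± 0.14, edgeR adjusted p = 2.06e-06). Both genes were apart in all 3 mice. Chrm2 was highest in Foxp2 nuclei of cluster B, at 256, 294 and 360 CPM. It had 48.8, 25.7 and 29.2 CPM in those of cluster A and 44.3, 6.06 and 55.2 CPM in the rest. Outside clusters A and B it missed the call by the 2-fold limit (log2 fold change 0.71, edgeR adjusted p = 0.0276). Chrna5, Drd1, Trhr, Chrna4, Oprd1, Htr2c and Hcrtr2 were the others that rose, and Npy2r, Ntsr2 and Adra1d fell.

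Genes of contact and axon guidance went in both directions. Of 51 cadherin and contact genes, 6 were higher and 4 lower. Cdh18 had 911, 546 and 1172 CPM in Foxp2 nuclei and 158, 196 and 199 CPM in Foxp2-zero nuclei, while Cdh8 had 165, 162 and 183 CPM in Foxp2 nuclei and 411, 327 and 420 CPM in Foxp2-zero nuclei. Of 45 guidance genes, 6 were higher and 3 lower. Sema5b, a semaphorin gene, had 64.95, 106 and 46.8 CPM in Foxp2 nuclei against 10.6, 16.4 and 6.72 CPM in Foxp2-zero nuclei, and Epha4 and Epha6, ephrin receptor genes, fell.

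Scn8a, the gene mutated in these mice, encodes the sodium channel Nav1.6 (chromosome 15, 100869858 to 101045938). It had 343, 375 and 382 CPM in Foxp2 nuclei and 397, 378 and 434 CPM in Foxp2-zero nuclei, a log2 fold change of -0.18 ± 0.11 (edgeR adjusted p = 0.381). The 2 alleles cannot be separated in these counts. Of 18 sodium channel and partner genes, only Scn7a was called. It was near 0 in Foxp2 nuclei, with 1, 1 and 3 UMIs, against 5.08, 4.36 and 5.59 CPM in Foxp2-zero nuclei. None of 49 epileptic encephalopathy genes and none of 9 genes of the Foxp family and reported Foxp2 targets was called by edgeR's quasi-likelihood test or by DESeq2. Unadjusted p-values of the edgeR test were under 0.05 for 18 of the 49 and 3 of the 9. Over all genes tested, 2.52% were called higher and 2.65% lower. At such rates lists of 9, 18 or 49 genes would hold few calls or none.

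Against the 2760 Foxp2-zero nuclei with CA1 markers, 503 of 14242 genes were higher (3.53%) and 362 lower (2.54%) in Foxp2 nuclei (edgeR quasi-likelihood test, Benjamini-Hochberg adjustment), and 127 and 32 without the block for mouse. Hmga2, Myocd, Kcnh8, St3gal1, Rai14 and Sema5b were furthest higher, and Tgfb2, Cenpf, Evc2, Adamts9, Pla2g7 and Fyb2 furthest lower. Sema5b had 64.95, 106 and 46.8 CPM in Foxp2 nuclei against 3.59, 8.61 and 1.57 CPM in CA1-marker nuclei (log2 fold change 4.16 ± 0.23, edgeR adjusted p = 4.03e-05). Pla2g7 was not called without mouse 2 or without mouse 3 (log2 fold changes -2.15 and -0.96), nor Fyb2 without mouse 2 (-2.11, edgeR adjusted p = 0.0822). Of 11 deep-layer corticothalamic genes tested, 7 were higher, with a median of 1.89 against -0.01 over all genes. Markers of other cells moved in the same comparison: 5 of 6 oligodendrocyte precursor genes tested were higher (median 1.66), as were 3 of 6 astrocyte genes (median 0.96), of which 1 more was lower. The precursor list summed to 203, 350 and 221 CPM in Foxp2 nuclei against 65.8, 86.5 and 60.1 CPM in CA1-marker nuclei, and the astrocyte list to 992, 1060.1 and 2133 CPM against 2133, 1366 and 2160 CPM in CA1-marker nuclei. Their part in the result was not tested.

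Against the 347 Foxp2-zero nuclei with subiculum markers, 400 of 12611 genes were higher (3.17%) and 251 lower (1.99%) in Foxp2 nuclei (edgeR quasi-likelihood test, Benjamini-Hochberg adjustment), and 84 and 78 without the block. Sulf1 had 175, 169 and 305 CPM in Foxp2 nuclei and 11.6, 3.45 and 7.03 CPM in subiculum-marker nuclei (log2 fold change 4.800 ± 0.30, edgeR adjusted p = 2.07e-05). Bmpr1b, a bone morphogenetic protein receptor gene, Myocd, Fancd2, Cdk6 and Glra2 were next. Skint1, Fyb2, Ndst4, Syt2, Lxn and St8sia2 were furthest lower, Ndst4 at 61.1, 23.1 and 45.1 CPM in Foxp2 nuclei against 599, 715 and 473 CPM in subiculum-marker nuclei. All 12 genes kept their calls without each mouse in turn, although the subiculum-marker sums held only 177, 61 and 109 nuclei.

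Activity-regulated genes, which neurons switch on after firing, depended on the class set beside Foxp2 nuclei. Over all genes tested, 2.52% were called higher against Foxp2-zero nuclei, 3.53% against CA1-marker nuclei and 3.17% against subiculum-marker nuclei. The shares called lower were 2.65%, 2.54% and 1.99%. None of 31 was called by edgeR's quasi-likelihood test or by DESeq2 against Foxp2-zero nuclei (12 with an unadjusted edgeR p under 0.05) or against CA1-marker nuclei (14), while 11 of 30 were higher against subiculum-marker nuclei, with a median log2 fold change of 0.73 against 0.00 over all genes tested. Nptx2, a secreted pentraxin gene, had 76.5, 17.3 and 215 CPM in Foxp2 nuclei and 14.6, 8.63 and 66.2 CPM in subiculum-marker nuclei (log2 fold change 1.98 ± 0.18, edgeR adjusted p = 0.000102). Bdnf, a neurotrophin gene, had 109, 69.3 and 408 CPM in Foxp2 nuclei against 38.7, 43.2 and 174 CPM in subiculum-marker nuclei. The sums of the list differed as much among mice, at 2770.1, 1266 and 4465 CPM in Foxp2 nuclei and 1692, 1117 and 2296 CPM in subiculum-marker nuclei. Its count was 5 of 29 without mouse 1 and 0 of 30 without the block for mouse. The difference between these comparisons was not tested.

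Foxp2 nuclei of clusters A and B differed from each other in every mouse, which is given as description because the clusters were formed on these genes. In mouse 2 these sums hold 9 Foxp2 nuclei in cluster A, 12 in cluster B and 12 in the rest. There 1 UMI is 8.57, 4.20 and 6.06 CPM, so low values of that mouse rest on very few molecules. Thsd7b, a corticothalamic-list gene, had 916, 497 and 773 CPM in Foxp2 nuclei of cluster A and 61.6, 33.6 and 46.7 CPM in those of cluster B. Sema3e, a semaphorin gene, had 391, 908 and 2007 CPM in cluster A against 26.0, 109 and 119 CPM in cluster B. Kcnh8 had 1.42, 0 and 1.01 CPM in cluster A and 313, 307 and 210 CPM in cluster B. It was at or near 0 in cluster A in all 3 mice. Kcnip1, Cntn6, Klhl1, Itga6, Abi3bp, Hmga2, Grik1 and Chrna5 were likewise higher in cluster B in all 3 mice, and Nedd9, Fancd2, Cd44, Vxn, Brinp2, Tmem132d and Lpar1 in cluster A.

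Other genes were shared by both clusters and low outside them. This too is description, because such genes were not withheld from the clustering. Hs3st4 had 2647, 2862 and 3349 CPM in cluster A, 3284, 3586 and 4464 CPM in cluster B, and 908, 928 and 753 CPM in the remaining Foxp2 nuclei. Cntnap4 stood at 604, 283 and 668 CPM in cluster A, 858, 836 and 780 CPM in cluster B, and 113, 42.4 and 158 CPM in the rest. Grik3 had 492, 377 and 354 CPM in cluster A, 339, 319 and 296 CPM in cluster B, and 124, 78.8 and 122 CPM in the rest, which remained above the Foxp2-zero nuclei (log2 fold change 1.75 in nuclei outside the clusters). Foxp2 itself stood at 193, 212 and 182 CPM in the scattered nuclei, against 399, 308 and 274 CPM in cluster A and 291, 206 and 334 CPM in cluster B. The scattered nuclei were below cluster A in all 3 mice and below cluster B in mice 1 and 3.

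The nuclei of cluster A that the rule did not take were like those it took in some genes and unlike them in others. Rai14 had 238 and 414 CPM in the Foxp2 nuclei and 247 and 379 CPM in the other nuclei of cluster A in those mice, and Hs3st4 had 2647 and 3349 CPM in the Foxp2 nuclei against 2378 and 3119 CPM in the others. Sulf1 had 294 and 778 CPM in the Foxp2 nuclei against 169 and 460 CPM in the others of those mice. Inpp4b, a layer 6b list gene, had 56.6 and 108 CPM in the Foxp2 nuclei against 360.3 and 408 CPM in the others, and Moxd1, of the same list, 1.42 and 1.51 CPM against 43.6 and 52.5 CPM. In mouse 2 the classes were apart in Rai14 and Hs3st4 as well. The Foxp2 nuclei of cluster A had 197 CPM of Rai14 and the cluster's other nuclei 58.0 CPM, with 2862 and 1229 CPM of Hs3st4. The cluster was larger in mouse 2, with 542 nuclei against 190 and 135 in mice 1 and 3. In each mouse some nuclei of cluster A had no Foxp2 UMI: at least 1 was found in 77.4%, 11.3% and 83.7% of its nuclei.

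**Figure D4:**
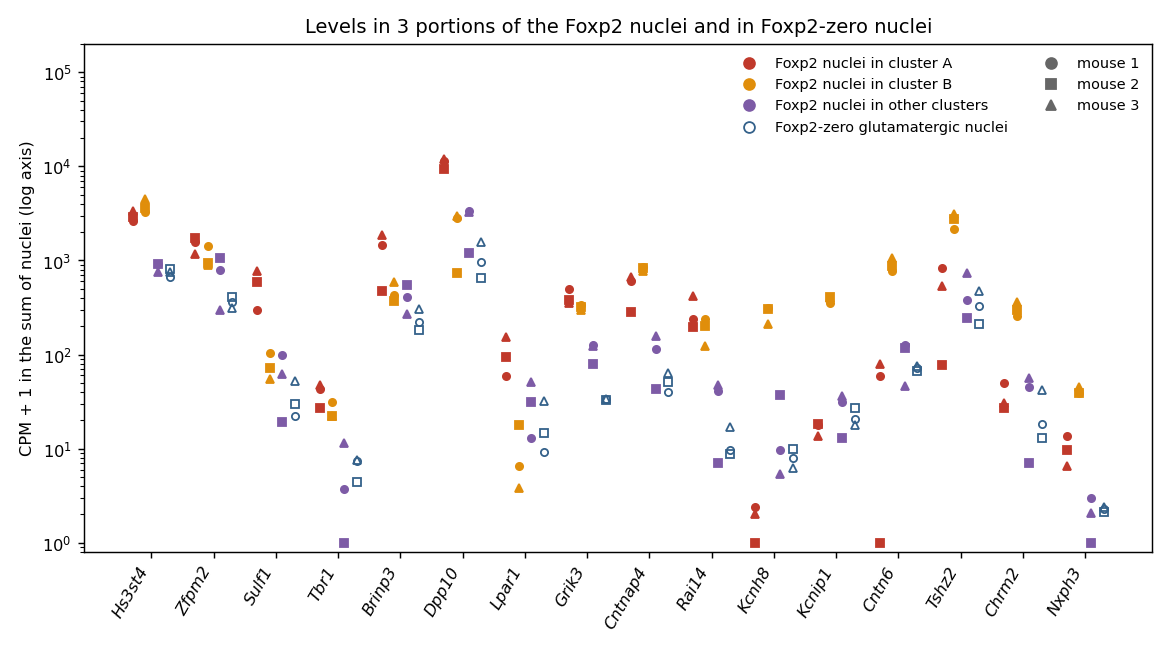
CPM + 1 (log axis) of 16 genes in Foxp2 nuclei of cluster A (red), of cluster B (orange) and of all other clusters (purple), and in Foxp2-zero glutamatergic nuclei (open blue), with 1 marker per mouse. Hs3st4 and Cntnap4 are high in both clusters, Kcnh8 and Kcnip1 in cluster B alone of the 4 groups shown, and the purple points lie near the blue ones for Tbr1, Kcnh8 and Nxph3.

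Set against all other nuclei of its library, the contrast that the rule itself defines and that was not tested, 108 of 6955 genes were at least 2-fold higher in Foxp2 nuclei in every mouse (1.55%) and 108 at least 2-fold lower (1.55%). Rai14, Myocd, Hs3st2, Rmst, Sulf1, St3gal1, Vwc2l, Grik3, Sntb1, Pamr1, Hs3st4 and Skap1 had the highest smallest ratio over the mice. Hs3st2, a second heparan sulfate sulfotransferase gene, had 190, 300.1 and 546 CPM in Foxp2 nuclei against 21.1, 40.2 and 66.0 CPM in all other nuclei. Vwc2l, a secreted factor gene, had 358, 643 and 522 CPM in Foxp2 nuclei and 68.8, 58.8 and 96.5 CPM in all other nuclei. Of 8 oligodendrocyte genes, 7 were at least 2-fold lower in every mouse, and 4 of 11 deep-layer corticothalamic genes at least 2-fold higher.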

How the data were processed

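The authors deposited a gene-by-barcode matrix of raw UMI counts per mouse, made with Cell Ranger 7.0.0 (mice 1 and 2) and 7.1.0 (mouse 3), per the file headers. The submitters' processing notes name mm10. No source used here states whether intronic reads were included. Counts of nuclei with 500 or more genes were summed per mouse and class. The members and gene lists were chosen with earlier results of these data known.

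Sums were tested with edgeR 4.0.16 (TMM, filterByExpr, quasi-likelihood test, mouse as a block, Benjamini-Hochberg over all genes tested). Calls required an adjusted p below 0.05 and a change of 1 or more on the log2 scale. Genes of the rule, and markers that chose the other class, were left out of tests. SEs were taken from the F statistic. Both classes come from the same animals; same-mouse deviations correlated at 0.18 to 0.57. Tests were checked on simulated counts. With 1 mouse left out, 1 residual degree of freedom remains and the spread is pooled over genes. CA1-marker and subiculum-marker nuclei had 2 or more of 5 markers detected, with more of these than of the other list.

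Each library was clustered alone (scanpy 1.11.5, 3000 variable genes, 30 components, 20 neighbours, Leiden resolution 1.5) without the rule's genes. Scrublet calls were kept, and left out in an alternative. Intervals are exact binomial and cover counting error only. Named genes were the 12 furthest each way among called genes with 20 CPM or more in the higher class and the same direction in 3 mice, leaving out unnamed gene models (6 each way in the other 2 comparisons), the 4 called genes of each list with the greatest change, and Scn8a; genes named outside this rule, such as Zfpm2, Cdh8, Nptx2, Bdnf and the genes of clusters A and B, were chosen after their values were seen. Ratios to all other nuclei used CPM plus 1 among genes of 20 CPM or more. Gene positions are from GENCODE M21, which held 32158 of 32285 gene IDs. Alternatives were RLE size factors, DESeq2 1.42.0, no filter, no block, each mouse left out, stricter gates, thinning to 1000 UMIs, depth matching and restriction by cluster.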

Additional observations from a re-analysis of the deposited data

How the results depend on the processing

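Against Foxp2-zero nuclei, Foxp2 nuclei had 809 called genes. The count was 63 with no replicate block, 1243 with the stricter Foxp2 gate (3 or more UMIs and more than 3 per 10000 together), 343 after thinning to 1000 UMIs, 1683 for nuclei in the first 2 clusters and 176 for those outside them (both chosen after seeing the data), and 741 to 800 without each mouse. Against CA1-marker nuclei, 865 became 159 with no block, 370 after thinning, 1516 and 196 inside and outside the clusters, and 622 to 1038 without each mouse. Against subiculum-marker nuclei, 651 became 162 with no block, 136 after thinning, 395 in the first cluster and 417 to 560 without each mouse. Thinning tested fewer genes; for the other settings the cause was not tested. Against all other nuclei, 216 became 431 after thinning, 352 with the stricter Foxp2 gate, 413 in the first cluster, 531 in the first 2 clusters and 278 to 331 without each mouse. The mean share of nuclei, 2.13%, was 1.37% to 3.08% without each mouse (1.37% without mouse 3), 0.658% with the stricter gate and 0.487% with 2 of Syt6, Rprm and Tle4. The first cluster, which is cluster A in mice 1 and 3 and cluster B in mouse 2, so that results for it mix both, held 41.1% of Foxp2 nuclei, 45.7% at Leiden resolution 1 and 50.3% with 20 components. Scn8a was not called under any alternative run, at log2 fold changes of -0.31 to -0.13.

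Of 92 named genes called against Foxp2-zero nuclei, 90 kept their calls with RLE size factors, 85 with DESeq2, 20 with no block, 81 of the 88 tested with depth matching and 45 of the 62 tested after thinning; 68 kept them without each mouse in turn. Outside the first 2 clusters 34 kept their calls, 51 lost them and 6 turned lower: Tbr1 (-0.046), Slc1a2 (-0.30), Grik1 (-0.0056), Chrna5 (-0.50), Cbln2 (-0.11) and Nxph3 (-0.024), none of them past the test. Pdgfra turned lower in the first cluster (-1.79) and in the first 2 (-1.73), Grik1 in the first cluster (-0.40) and with the stricter gate (-0.70), and Ntn1 in the first cluster (-0.25). With 33 nuclei, mouse 2 limits every value of genes under 5.77 CPM, and within cluster A, cluster B or the rest it limits higher values too.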

Other observations

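Of 20 neuropeptide and secreted factor genes tested, 2 were higher in Foxp2 nuclei, Nxph3 and Nxph1, and 3 lower, Npy, Igfbp4 and Cck, with a median log2 fold change of -0.45. Nxph3, a neurexophilin gene, had 13.5, 19.2 and 10.3 CPM in Foxp2 nuclei of mice 1, 2 and 3, against 1.26, 1.13 and 1.39 CPM in Foxp2-zero glutamatergic nuclei (log2 fold change 3.28 ± 0.33, edgeR adjusted p = 4.33e-05). Within Foxp2 nuclei it stood at 12.7, 8.57 and 5.53 CPM in cluster A, 38.3, 37.8 and 43.9 CPM in cluster B, and 2.01, 0 and 1.08 CPM in the rest. The 8.57 CPM of mouse 2 in cluster A is 1 UMI. Npy, the neuropeptide Y gene, had 6.61, 9.62 and 17.05 CPM in Foxp2 nuclei against 8.43, 22.6 and 50.4 CPM in Foxp2-zero nuclei. Npy was no longer called without mouse 3 (log2 fold change -0.64, edgeR adjusted p = 0.307). The same held for Igfbp4 (-1.06, edgeR adjusted p = 0.0570). Cbln2, a cerebellin gene of the contact list, had 9.91, 21.2 and 5.86 CPM in Foxp2 nuclei and 1.10, 1.70 and 2.85 CPM in Foxp2-zero nuclei. Nxph1, a related neurexophilin gene, had 69.6, 156 and 103 CPM in Foxp2 nuclei against 22.4, 69.3 and 11.8 CPM in Foxp2-zero nuclei (log2 fold change 2.01 ± 0.28, edgeR adjusted p = 0.000470).

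Among transcription factor genes, Tshz3, a zinc finger homeobox gene, had 156, 114 and 241 CPM in Foxp2 nuclei and 51.3, 33.7 and 62.7 CPM in Foxp2-zero nuclei (log2 fold change 1.73 ± 0.12, edgeR adjusted p = 2.71e-06). Tle3, a co-repressor gene of the same family as Tle4, fell to 3.85, 7.70 and 3.27 CPM in Foxp2 nuclei, against 13.9, 12.5 and 14.3 CPM in Foxp2-zero nuclei (log2 fold change -1.91 ± 0.26, edgeR adjusted p = 0.000438).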
